A study of Mus musculus with 6 samples.

Results

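Transcripts that remained in CNOT3-depleted MEFs were compared with those that remained in control MEFs at the same time after actinomycin D (Act. D), a drug that binds DNA and blocks transcription. MEFs, primary fibroblasts of mouse embryos, carried floxed CNOT3 alleles. Cells infected with a Cre retrovirus are the CNOT3KD MEFs, called CNOT3-depleted here, and cells infected with a retrovirus without Cre are the control MEFs. Both cultures were kept in puromycin for 2 days, so infection and selection are shared by all groups. In the labels the controls are wild type and the others CNOT3 knock down. The 4 arrays compared were control and CNOT3-depleted MEFs at 6 h of Act. D and the same pair at 12 h, of 6 arrays in all, and the untreated arrays at 0 h are given beside them. Each condition was measured with 1 array, so no difference at a given time has a replicate check, a p-value or an error, and precision is limited by the number of arrays. The ratio used is the CNOT3-depleted signal over the control signal at that time, without division by the level at 0 h. A probe set, the group of short oligonucleotides that reads a transcript on the array, was eligible at a time if the larger of its 2 signals there was at least 200. Signals under 20 were set to 20, and a ratio against such a signal is given as at least that size. Of 45037 probe sets, 14873 were eligible at 6 h, 14974 at 12 h and 14262 at both times.

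The CCR4-NOT complex shortens the poly(A) tails of mRNAs in the cytoplasm, a step that usually comes before decapping and decay of the transcript body. CNOT3 is a subunit without catalytic activity that binds the scaffold of the complex together with CNOT2, and the deadenylases CNOT6, CNOT6L, CNOT7 and CNOT8 do the cutting. When new synthesis is blocked, the amount of an mRNA that is present at a given time depends on how much there was at the start and on how fast it was lost. A ratio at a matched time carries both, which is why the ratio at 0 h is given next to those at 6 h and 12 h.

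The MAS5 signals had a trimmed mean between 494 and 497 on every array, so a signal is relative to the mRNA that remained and not an amount per cell. In bulk RNA of this kind, fewer cells of a type and less RNA per cell cannot be told apart. The brightest 1% of probe sets held 24.4% to 26.4% of the signal on the 3 CNOT3-depleted arrays, and 24.5%, 31.0% and 34.1% on the control arrays at 0, 6 and 12 h. Cnot3 itself had signals of 204, 201 and 279 in control MEFs at 0, 6 and 12 h against 227, 90.7 and 92.6 in CNOT3-depleted MEFs at its brighter probe set, 1.11-fold higher at 0 h and 2.22-fold and 3.02-fold lower at 6 h and 12 h. Its other probe set, dimmer over the Act. D arrays but brighter at 0 h, read 436, 193 and 198 in control MEFs against 239.6, 128 and 82.9 in CNOT3-depleted MEFs. The labels were thus matched by lower Cnot3 at 6 h and 12 h at both probe sets, and at 0 h at the second alone, which had the larger signal there. The study itself reported depletion of CNOT3 by immunoblot and a significant decrease of cnot3 mRNA by qPCR. The sources used here do not say where these probe sets lie relative to the floxed exons. Markers of fibroblasts were all eligible, 15 of 15.

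On the signals as deposited, more transcripts were higher than lower in CNOT3-depleted MEFs at matched times, and quantile normalization brought the counts much closer (3200 higher against 2895 lower at 12 h, and 1560 against 1134 at both times). At 6 h, 2698 of 14873 probe sets (18.1%) were at least 2-fold higher and 666 (4.48%) at least 2-fold lower. At 12 h, 4113 of 14974 (27.5%) were higher and 1744 (11.6%) lower. Of the 14262 probe sets eligible at both times, 2280 (16%) were higher at both and 547 (3.84%) lower at both, and 0 were higher at one time and lower at the other. A further 1777 (12.5%) were higher at 12 h only, 200 (1.4%) higher at 6 h only, 857 (6.01%) lower at 12 h only and 81 (0.568%) lower at 6 h only, which left 8520 under 2-fold at both times. These shares are the background against which the members of the gene groups are read below. The log2 ratios at the 2 times had a Pearson r of 0.886 and a Spearman rho of 0.907 across the 14262 probe sets, which are not independent replicates. The ratio lay on the same side of 1 at both times for 12538 probe sets (87.9%), and for 9634 (67.6%) it was on the same side and further from 1 at 12 h than at 6 h. The middle 50% of the log2 ratios ran from −0.22 to 0.30 at 0 h, from −0.41 to 0.70 at 6 h and from −0.57 to 1.17 at 12 h. Ratios of at least 4-fold at both times were found for 532 probe sets in the higher direction and 12 in the lower, and of at least 8-fold for 96 and 2.

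**Figure D1:**
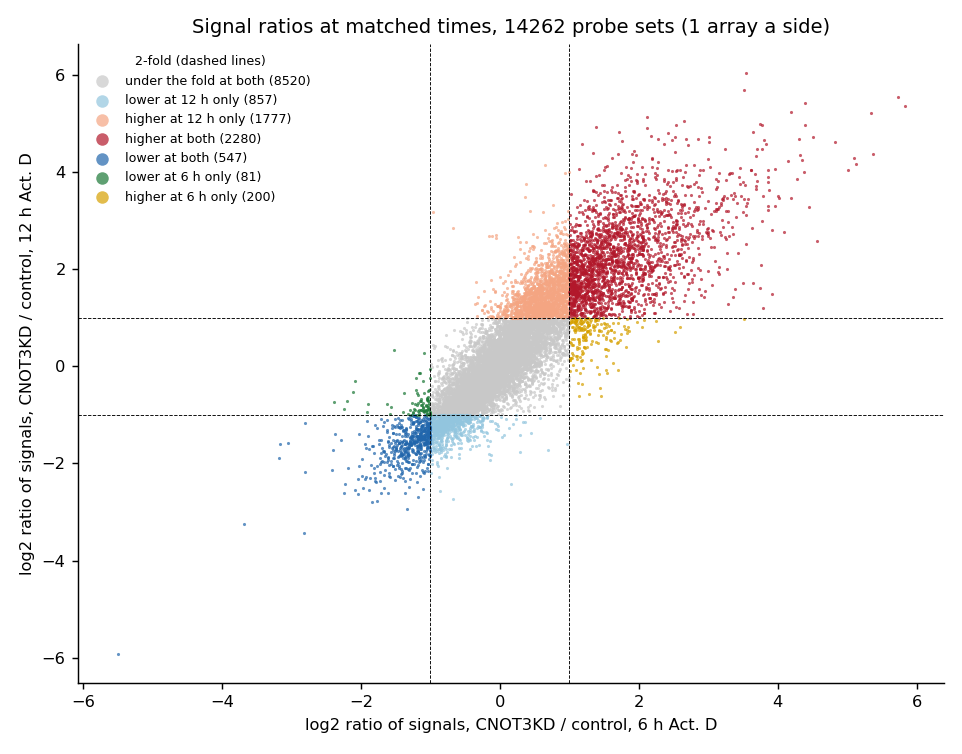
Log2 ratio of the CNOT3-depleted to the control signal at 6 h (horizontal axis) against that at 12 h (vertical axis) for the 14262 probe sets eligible at both times, 1 array a side, coloured by class, with dashed lines at 2-fold. The 2280 probe sets higher at both times fill the upper right, the 547 lower at both times the lower left, and the upper left and lower right corners beyond both lines hold 0.

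The transcripts higher at both times were mostly ones that were lost from control MEFs and lost less from CNOT3-depleted MEFs. The class was picked by its ratios on the same 6 h and 12 h arrays, so this course follows in large part from the choice. The values below describe the class and are no separate evidence of slower loss. Their median signal in control MEFs was 811 at 0 h, 223 at 6 h and 152 at 12 h, and in CNOT3-depleted MEFs it was 1002, 747 and 679. In control MEFs, 2069 of the 2280 (90.7%) were at 12 h at or below 50% of their 0 h signal, against 372 (16.3%) in CNOT3-depleted MEFs. Over all 14262 eligible probe sets these numbers were 4271 (29.9%) and 988 (6.93%), so loss to this extent was above the background in both cultures. The median log2 ratio was 0.32 at 0 h, 1.61 at 6 h and 2.19 at 12 h, and 1753 of the 2280 had the larger ratio at 12 h. Before Act. D, 1892 of them (83.0%) already had a ratio above 1, but 1700 (74.6%) were within 1.5-fold, 176 (7.72%) were at least 2-fold higher and 4 at least 2-fold lower. Among all 14262 probe sets, 344 (2.41%) were at least 2-fold higher and 221 (1.55%) at least 2-fold lower at 0 h. The ratios at the 3 times come from 3 separate pairs of arrays.

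The transcripts lower at both times, picked by the same ratios, had another course. Their median signal went from 677 to 755 and 972 in control MEFs, while in CNOT3-depleted MEFs it was 372, 305 and 317. In control MEFs, 218 of the 547 (39.9%) had at 12 h at least 2 times their 0 h signal, on a scale that is relative to the remaining mRNA. Among the 8520 probe sets under 2-fold at both times, 1142 (13.4%) did so. The difference was present before Act. D to a greater extent than among the higher ones, with a median log2 ratio of −0.75 at 0 h, −1.25 at 6 h and −1.57 at 12 h, and 135 of the 547 (24.7%) at least 2-fold lower at 0 h. In the class lower at 12 h only, control MEFs went from 857 to 975 and 1339 and CNOT3-depleted MEFs from 654 to 591 and 577, and 412 of the 857 (48.1%) had at 12 h at least 2 times their 0 h signal in control MEFs. The class higher at 12 h only had control signals of 907, 626 and 338 and CNOT3-depleted signals of 1018, 976 and 948, so that the control median was lower at 12 h than at 6 h while the CNOT3-depleted median was nearly level.

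**Figure D2:**
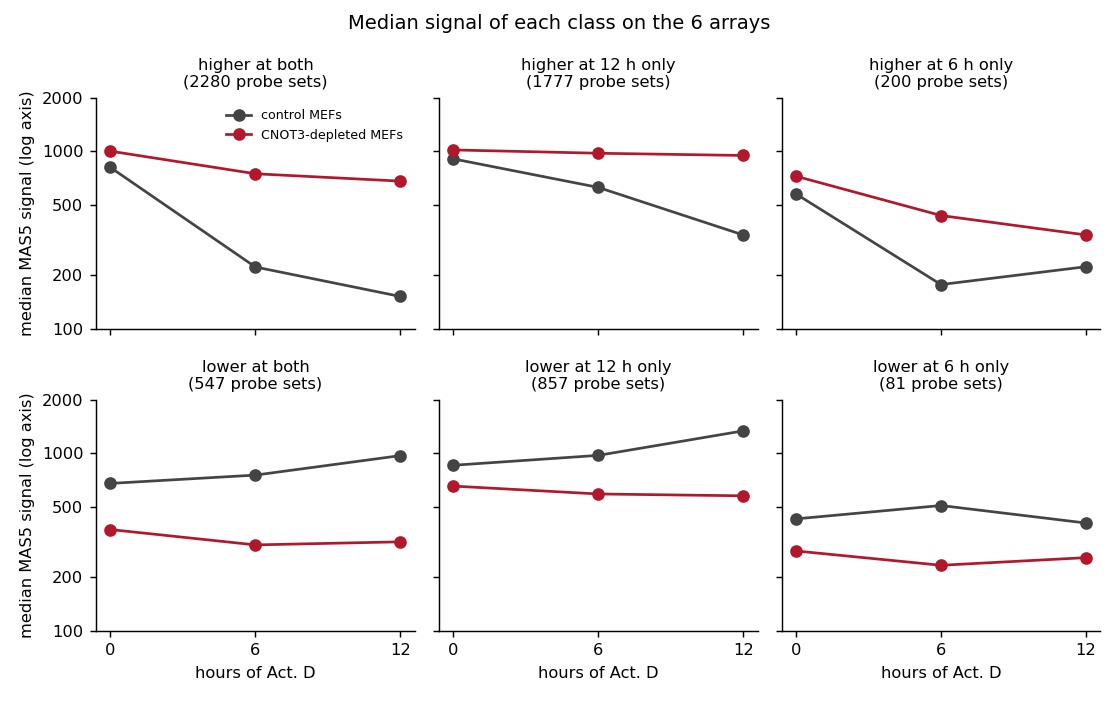
Median MAS5 signal (log axis) at 0, 6 and 12 h of Act. D on the control arrays (dark) and the CNOT3-depleted arrays (red) for each class of probe sets, with the number of probe sets above each panel. For probe sets higher at both times or at 12 h only the control median is lower at each later time, and for those lower at both times or at 12 h only it is higher at each later time.

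Eligibility rests on the larger signal, so a probe set could enter through the culture in which it was high. Of the 2280 probe sets higher at both times, 796 (34.9%) had at least 200 on all 4 arrays, and the other 1484 (65.1%) reached it at both times in CNOT3-depleted MEFs while the control signal was under it at 1 or both times. Of the 547 lower at both times, 317 (58.0%) had at least 200 on all 4 arrays and 230 (42.0%) reached it at both times in control MEFs while the CNOT3-depleted signal was under it at 1 or both times. A further 611 probe sets were eligible only at 6 h, of which 218 were higher and 38 lower, and 712 only at 12 h, of which 56 were higher and 340 lower. At the edges of the rule, the lowest larger signal kept was 200.03 at 6 h and 200.02 at 12 h, and the highest left out was 199.996 and 199.97. The lowest ratio counted as higher was 2.0002 at 6 h and 2.0003 at 12 h, and the highest not counted was 1.9993 and 1.9987.

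Each gene was represented by its brightest probe set over the 4 Act. D arrays, which gave 8222 eligible genes. Of these, 1548 (18.8%) were higher at both times, 188 (2.29%) lower at both, 1118 (13.6%) higher at 12 h only, 138 (1.68%) higher at 6 h only, 361 (4.39%) lower at 12 h only and 41 (0.499%) lower at 6 h only. The median log2 ratio of all eligible genes was 0.09 at 0 h, 0.18 at 6 h and 0.34 at 12 h, and gene groups are set beside these values. The 2 directions differed in how well a gene's probe sets agreed. Of 675 dimmer probe sets that were higher at both times, 428 (63.4%) belonged to genes whose brightest probe set was too, and 3 to genes whose brightest probe set was past 2-fold in the other direction. Of 256 dimmer probe sets that were lower at both times, 66 (25.8%) belonged to genes whose brightest probe set was too, and 30 to genes whose brightest was past 2-fold in the other direction. Probe sets that were named for no single gene made up 2.5% of those higher at both times, 18.8% of those lower at both times and 7.59% of all eligible ones. Names from the study's tables of stabilized genes were used for 41 of the higher and 0 of the lower ones, and without them the first share would be 4.3%. The lowest ratio of all was that of a dimmer Rps9 probe set, with 14962.5, 26597 and 36058.5 in control MEFs against 522, 588 and 595 in CNOT3-depleted MEFs, 28.7-fold lower at 0 h already, while the brightest Rps9 probe set had 17951, 29859 and 35205 in control MEFs against 17681, 19066 and 19997 in CNOT3-depleted MEFs.

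Among the transcripts with the largest ratios, whose order is not resolved where control signals were under 20, was Med17, which encodes a subunit of Mediator, the complex that links transcription factors to RNA polymerase II. Its signal was 979, 6.57 and 9.54 in control MEFs at 0, 6 and 12 h against 1535, 1058 and 940.2 in CNOT3-depleted MEFs. It was thus at or near the bottom of the scale in control MEFs under Act. D and kept most of its signal in CNOT3-depleted MEFs, at least 52.9-fold and at least 47.0-fold higher at 6 h and 12 h, from 1.57-fold higher at 0 h. Nck1, an adaptor that couples tyrosine kinases to the actin cytoskeleton, had 1012, 8.45 and 8.94 in control MEFs at 0, 6 and 12 h against 1524, 811 and 744 in CNOT3-depleted MEFs, at least 40.6-fold and at least 37.2-fold higher at 6 h and 12 h. Stxbp3, which binds syntaxins at the step of vesicle fusion, had 1547, 123 and 20.1 in control MEFs against 1893, 1435 and 1323 in CNOT3-depleted MEFs, 11.7-fold and 65.9-fold higher at 6 h and 12 h after only 1.22-fold higher at 0 h. Leo1, of the elongation complex PAF1, had 992, 95.1 and 7.56 in control MEFs against 1283, 1085 and 1038 in CNOT3-depleted MEFs and was 11.4-fold and at least 51.9-fold higher at 6 h and 12 h.

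Hyal2, a hyaluronidase at the cell surface, had 491, 20.5 and 34.3 in control MEFs at 0, 6 and 12 h against 934, 702 and 668 in CNOT3-depleted MEFs and was 34.3-fold and 19.5-fold higher at 6 h and 12 h. Ccn1, a secreted matrix protein whose gene is induced early by serum, had the brightest signal of this group with 12628, 232 and 379 in control MEFs against 21694, 8085 and 6863 in CNOT3-depleted MEFs. It was 34.9-fold and 18.1-fold higher at 6 h and 12 h, from 1.72-fold higher at 0 h, and the other eligible Ccn1 probe set was higher at both times too. Pik3c3, the lipid kinase of autophagy, had 284, 49.1 and 19.4 in control MEFs against 484, 660.4 and 638 in CNOT3-depleted MEFs and was 13.4-fold and at least 31.9-fold higher at 6 h and 12 h. Stk10 and Stk17b, protein kinases, were at least 20.1-fold and at least 20.6-fold higher at 6 h and 12 h and 19.8-fold and 25.8-fold higher at 6 h and 12 h, in that order. The remaining named genes at the top were Commd5, Tspyl3 and Acbd3, a Golgi protein, at 18.3-fold to 28.3-fold higher at 6 h and 19.0-fold to 37.6-fold higher at 12 h, where the control signal of Tspyl3 was under 20 so that its ratio is a lower limit.

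**Figure D3:**
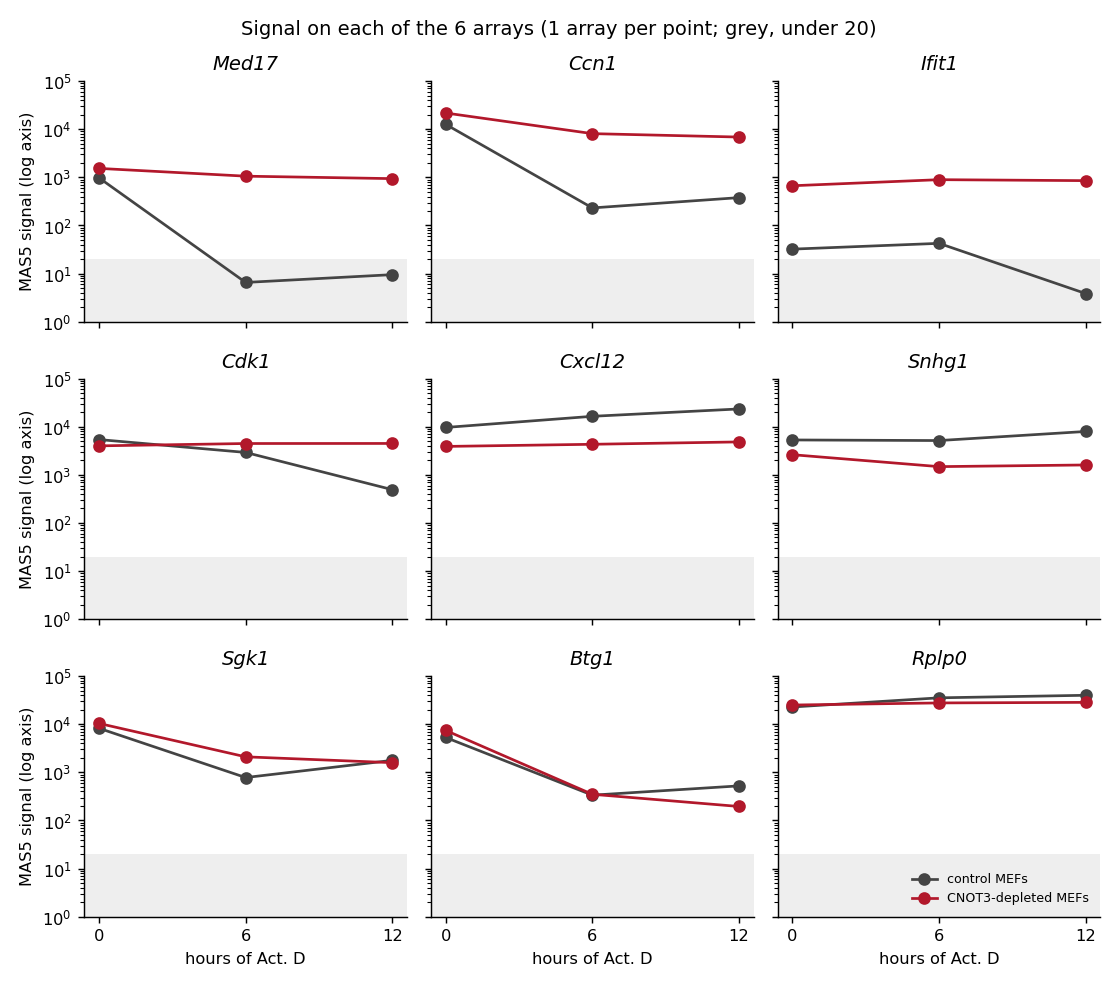
MAS5 signal (log axis) on each of the 6 arrays for 9 genes at 0, 6 and 12 h of Act. D, control MEFs dark and CNOT3-depleted MEFs red, 1 array per point, with signals under 20 shaded. Med17, Ccn1 and Ifit1 are higher in CNOT3-depleted MEFs at 6 h and 12 h, Cdk1 is past 2-fold at 12 h only, Cxcl12 and Snhg1 are lower at both times, Sgk1 is higher at 6 h only, Btg1 is lower at 12 h only and Rplp0 is under 2-fold at both.

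Genes induced by interferon were the group with the highest median ratio among those with at least 10 eligible genes. Of 41 genes measured, 27 were eligible at both times. Of these, 18 (66.7%, against 18.8% of all genes) were higher at both times, 2 at 12 h only and 1 at 6 h only, and 0 were lower. Genes eligible through the CNOT3-depleted signal alone, such as Ifit1, Usp18 and Igtp, could not be counted as lower. The median log2 ratio was 1.48, 1.61 and 2.28 at 0, 6 and 12 h, so most of the difference was there before Act. D, and 16 of the 27 were at least 2-fold higher at 0 h. Ifit1, which binds foreign RNA, had 32.3, 42.6 and 3.86 in control MEFs at 0, 6 and 12 h against 669, 895 and 854 in CNOT3-depleted MEFs, 20.7-fold higher at 0 h and 21.0-fold and at least 42.7-fold higher at 6 h and 12 h. Usp18, a protease that removes ISG15 and dampens interferon signalling, had 43.7, 10.1 and 2.42 in control MEFs against 633, 1138 and 821 in CNOT3-depleted MEFs, 14.5-fold higher at 0 h and at least 56.9-fold and at least 41.0-fold higher at 6 h and 12 h. Igtp, an immunity-related GTPase, had 145, 19.9 and 40.0 in control MEFs against 615, 647 and 657 in CNOT3-depleted MEFs and was at least 32.4-fold and 16.4-fold higher at 6 h and 12 h. In all 3 genes the CNOT3-depleted signal stood above the control signal on every pair of arrays, at 0 h already. Others were lost from control MEFs during Act. D, as Irgm1 with 756, 118 and 76.4 in control MEFs against 1386, 1124 and 706 in CNOT3-depleted MEFs and Trim25 with 1185, 252 and 113 in control MEFs against 1413, 1298 and 905 in CNOT3-depleted MEFs. B2m, the light chain of MHC class I, had 13037, 21971 and 31044 in control MEFs against 12839, 17106 and 17857 in CNOT3-depleted MEFs and stayed under 2-fold, as did Ifitm2 and Ifitm3.

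Interferon-stimulated genes are known for a promoter element bound by STAT and IRF factors, so their promoters were searched for 1 form of it, GAAANNGAAA, on either strand within 250 bases before the start of transcription (RefSeq, GRCm38.p6). The motif was in 978 of 32851 promoters (2.98%), in 203 of 6727 eligible genes with a promoter in the table (3.02%) and in 45 of 1247 genes higher at both times (3.61%). Among eligible interferon-stimulated genes it was in 9 of 25 (36%), and among those higher at both times in 7 of 16 (43.8%). The letters are a description of these windows and not a binding site. Stretches of 70 bases are shown for 4 of these genes that were higher at both times, with the motif or its reverse complement in capitals, 5′ to 3′ on the strand of the gene.
Ifit1, chr19:34640760-34640829, plus strand: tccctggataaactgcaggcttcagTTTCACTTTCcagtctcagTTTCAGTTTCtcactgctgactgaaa
Ifit3, chr19:34583348-34583417, plus strand: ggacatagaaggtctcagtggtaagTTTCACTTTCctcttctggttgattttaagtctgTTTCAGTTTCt
Igtp, chr11:58199486-58199555, plus strand: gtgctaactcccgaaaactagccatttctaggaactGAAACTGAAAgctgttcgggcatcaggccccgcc
Oas1a, chr5:120907526-120907595, minus strand: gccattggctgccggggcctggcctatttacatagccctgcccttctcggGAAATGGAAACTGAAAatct
The first motif began 104, 156, 34 and 20 bases before the start of transcription in this order. Ifit3 had signals of 63.6, 99.1 and 63.3 in control MEFs at 0, 6 and 12 h against 1009, 1387 and 1603 in CNOT3-depleted MEFs, 14.0-fold and 25.3-fold higher at 6 h and 12 h, and Oas1a, which makes the second messenger that activates RNase L, had 24.5, 58.8 and 31.9 in control MEFs against 253, 316 and 276 in CNOT3-depleted MEFs, 5.37-fold and 8.66-fold higher at 6 h and 12 h.

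Genes of transcription by RNA polymerase II were close to all genes at 0 h and above them at 6 h and 12 h. Over all genes, 18.8% were higher at both times and 13.6% at 12 h only. PAF1 complex and elongation factors had median log2 ratios of 0.24, 0.90 and 1.38 at 0, 6 and 12 h. Of these, 9 of 22 eligible genes (40.9%) were higher at both times and 6 more at 12 h only. With a median over probe sets, the list medians at 6 h and 12 h were 0.54 and 1.07. Of RNA polymerase II subunits and general transcription factors, 11 of 29 were higher at both times and 0 lower (medians 0.12, 0.42 and 1.01), and of Mediator subunits 9 of 30 (medians 0.10, 0.27 and 0.86). Cdc73, a PAF1 component, had 2183, 527 and 243 in control MEFs at 0, 6 and 12 h against 3227, 3408 and 3186 in CNOT3-depleted MEFs and was 6.47-fold and 13.1-fold higher at 6 h and 12 h. Ctr9, the scaffold of the same complex, was 2.01-fold and 8.64-fold higher at 6 h and 12 h, with 544 in control MEFs at 6 h and 127 at 12 h. Gtf2b, the general factor TFIIB that places the polymerase on the promoter, had 1971, 171 and 148 in control MEFs against 2434, 1974 and 1956 in CNOT3-depleted MEFs and was 11.6-fold and 13.2-fold higher at 6 h and 12 h. Tbp, the TATA-binding protein, had 655, 52.5 and 37.9 in control MEFs against 707, 302 and 224 in CNOT3-depleted MEFs, 5.76-fold and 5.91-fold higher at 6 h and 12 h. Gtf2e1, a TFIIE subunit, was 6.97-fold and 17.8-fold higher at 6 h and 12 h, and Mediator subunits Med6 and Med4 were 3.73-fold and 8.39-fold higher at 6 h and 12 h and 7.18-fold and 4.08-fold higher at 6 h and 12 h, in that order. Splicing factors had medians of -0.10, 0.09 and 0.53, of which that at 6 h turned to −0.02 with a median over probe sets. Of these, 4 of 30 (13.3%) were higher at both times, a share below that of all genes. Prpf3, a factor of the U4/U6 snRNP, had 693, 117 and 52.4 in control MEFs against 843, 596 and 616 in CNOT3-depleted MEFs and was 5.07-fold and 11.8-fold higher at 6 h and 12 h.

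Among the subunits of CCR4-NOT itself, transcripts differed from one another. Cnot2, the partner of CNOT3, had 915, 334 and 157 in control MEFs at 0, 6 and 12 h against 1359, 1326 and 1308 in CNOT3-depleted MEFs and was 3.97-fold and 8.33-fold higher at 6 h and 12 h. Cnot11 was 5.86-fold and 16.4-fold higher at 6 h and 12 h and Cnot4, a ubiquitin ligase that associates with the complex, 6.55-fold and 3.73-fold higher at 6 h and 12 h. The deadenylases Cnot7 and Cnot8 were past 2-fold at 12 h only, Cnot7 with 3567, 1897 and 779.5 in control MEFs against 3064, 2552 and 2334 in CNOT3-depleted MEFs. Cnot6, another deadenylase, was on the other side, with 2960.4, 4132 and 4591 in control MEFs against 2203, 2336 and 2088 in CNOT3-depleted MEFs and 2.20-fold lower at 12 h, and Cnot6l was under 2-fold at both times. Btg1 and Btg2, which recruit the deadenylases to mRNAs, were lower at 12 h only. The 13 eligible genes of the group, Cnot3 included, had medians of 0.16, 0.43 and -0.01, and the sign at 12 h turned positive (0.71) where arrays were scaled to ribosomal proteins.

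Other enzymes of mRNA decay were higher at both times in 29.0% of cases, against 18.8% of all genes. Of 31 eligible genes, 9 were higher at both times, 6 at 12 h only, 1 lower at both and 1 lower at 12 h only, with medians of 0.02, 0.26 and 0.81. The 3 with the largest mean ratio were all subunits of the RNA exosome, which degrades RNA from its 3′ end. Exosc7 had 1509.5, 255 and 135 in control MEFs at 0, 6 and 12 h against 1901, 1841 and 1746 in CNOT3-depleted MEFs and was 7.21-fold and 12.9-fold higher at 6 h and 12 h, Exosc3 was 3.22-fold and 13.4-fold higher at 6 h and 12 h and Exosc4 was 3.65-fold and 7.73-fold higher at 6 h and 12 h. Adaptors that bring decay enzymes to AU-rich elements or miRNA targets went the other way or stayed near 1, with medians of -0.23, -0.27 and -0.24 and 0 of 20 higher at both times. They lay 0.45 and 0.58 below the median of all genes at 6 h and 12 h, and at 0 h their median was already below that of all genes (0.09). Ribosomal protein scaling put the medians at 6 h and 12 h at 0.23 and 0.48. It shifts every gene alike, so it could not change these distances and is no check. Rc3h2, which binds stem-loops, and Tia1, which binds AU-rich elements, were 2.24-fold lower and 2.15-fold lower at 12 h, in that order. Zfp36l2, which recruits CCR4-NOT to AU-rich elements, had 8171, 717 and 815 in control MEFs against 5281, 1467 and 987 in CNOT3-depleted MEFs, 2.05-fold higher at 6 h only.

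Cell death genes were of special interest in the study, which followed transcripts of this kind by qPCR. Of the 7 genes it followed as stabilized, 6 were higher at both times, with medians of 0.73, 1.77 and 2.51, but the study took them up after seeing these arrays, with Ripk3 measured for its role rather than for its array value, so they are no independent evidence. Ripk1, a kinase at the branch between survival, apoptosis and necroptosis, had 894, 192 and 69.6 in control MEFs at 0, 6 and 12 h against 1178, 1078 and 969 in CNOT3-depleted MEFs and was 5.62-fold and 13.9-fold higher at 6 h and 12 h. Ripk3, its necroptotic partner, had 1596, 1769 and 1612 in control MEFs against 2556, 2876 and 2705 in CNOT3-depleted MEFs, a ratio of 1.60 at 0 h, 1.63 at 6 h and 1.68 at 12 h. The study instead described the array level of ripk3 as too low to judge a change. By qPCR it found more ripk3 mRNA and a longer half-life after depletion. The source of this discrepancy with the signals here was not tested. Cdkn1a, the CDK inhibitor p21, had 8319.6, 3952 and 2048 in control MEFs against 14216, 13519.7 and 13649 in CNOT3-depleted MEFs and was 3.42-fold and 6.67-fold higher at 6 h and 12 h. Creb3, Dvl2 and Sirt5 were 3.02-fold higher, 5.00-fold higher and 5.70-fold higher at 12 h, in that order. The 3 genes followed as short-lived in both cultures, Fbxo30, Klf9 and Zfp292, were not eligible at both times. Klf9 had 3607, 303 and 194 in control MEFs against 3581, 353 and 116 in CNOT3-depleted MEFs and Fbxo30 had 941, 133 and 159.7 in control MEFs against 1049, 95.7 and 74.6 in CNOT3-depleted MEFs, with both cultures low after Act. D, and Fbxo30 was 2.14-fold lower at 12 h at signals under 200.

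Over all necroptosis and death receptor genes, 5 of 20 eligible (25%, against 18.8% of all genes) were higher at both times and 1 lower, with medians of 0.03, 0.30 and 0.70. Quantile normalization gave 0.026 at 6 h, below the 0.034 of all genes, and 0.27 at 12 h against 0.10. The receptors Fas and Tnfrsf1a and the adaptors Tradd and Fadd were among the higher ones. Fas had 198, 63.3 and 112 in control MEFs at 0, 6 and 12 h against 492, 432 and 279 in CNOT3-depleted MEFs and was 6.83-fold and 2.49-fold higher at 6 h and 12 h, and Tradd was 2.34-fold and 4.89-fold higher at 6 h and 12 h. The lower one was Irak1, a kinase of Toll-like receptor signalling, with 2463, 3895 and 4859 in control MEFs against 901, 1353 and 2065 in CNOT3-depleted MEFs. Mlkl, the pore former of necroptosis, had 385, 449 and 346 in control MEFs against 501, 523 and 542 in CNOT3-depleted MEFs and stayed under 2-fold. In the BCL2 family and caspases, 7 of 21 were higher at both times and 0 lower. Bid, a BH3-only protein cut by caspase-8, was 3.47-fold and 12.9-fold higher at 6 h and 12 h, and Dapk1, a death-associated kinase, had 215, 70.7 and 18.0 in control MEFs against 478, 340.0 and 338 in CNOT3-depleted MEFs, 4.81-fold and at least 16.9-fold higher at 6 h and 12 h. Of p53 targets and CDK inhibitors, 7 of 23 were higher at both times, yet the list median was 0.10, 0.18 and 0.00, and that at 12 h turned to −0.06 under quantile normalization and −0.11 with median-centred ratios.

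Mitosis genes lay on opposite sides of 1 at 0 h and at 12 h. Their median log2 ratio was −0.78 at 0 h, −0.03 at 6 h and 1.17 at 12 h, and the value at 6 h turned positive with a median over probe sets (0.13) or with ribosomal protein scaling (0.48). Of 36 eligible genes, 13 were higher at 12 h only, 7 at both times (19.4%, against 18.8% of all genes), 3 lower at both and 2 lower at 6 h only. Cdk1, the kinase that drives entry into mitosis, had 5404, 2918 and 492 in control MEFs at 0, 6 and 12 h against 3996, 4471 and 4484 in CNOT3-depleted MEFs, 1.35-fold lower at 0 h, 1.53-fold higher at 6 h and 9.12-fold higher at 12 h. Its signal was thus level in CNOT3-depleted MEFs and lower at each later time in control MEFs. Plk1, a mitotic kinase, had 1135, 194 and 80.2 in control MEFs against 959.9, 879 and 836 in CNOT3-depleted MEFs and was 4.54-fold and 10.4-fold higher at 6 h and 12 h. Aurka and Incenp, a kinase of the spindle poles and a partner of Aurora B, were 3.48-fold and 7.02-fold higher at 6 h and 12 h and 6.53-fold and 5.38-fold higher at 6 h and 12 h, in that order. Ccnb2, Cenpa and Birc5 were instead lower at both times and at 0 h, Birc5, the survivin of the chromosomal passenger complex, with 4265, 6103 and 5268 in control MEFs against 1588, 2094 and 1841 in CNOT3-depleted MEFs. DNA replication genes had medians of -0.27, -0.01 and 0.58, with 9 of 39 higher at 12 h only and 5 at both, the 6 h median again turning positive under ribosomal protein scaling (0.50) and with a median over probe sets (0.09). Cdt1, which licenses origins, was 5.31-fold and 3.46-fold higher at 6 h and 12 h. DNA repair genes had medians of 0.12, 0.39 and 0.99 and 6 of 28 higher at both times, among them Fancf, of the Fanconi anaemia core complex, with 604, 28.1 and 16.7 in control MEFs against 801, 275 and 309.8 in CNOT3-depleted MEFs, and Msh6, of mismatch repair, 6.91-fold and 9.20-fold higher at 6 h and 12 h.

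Genes of ubiquitin ligases, membrane traffic and mitochondrial translation also held members that were higher at both times, against 18.8% of all genes. F-box genes, which encode the substrate receptors of SCF ubiquitin ligases, had medians of 0.19, 0.90 and 1.12, with 10 of 30 (33.3%) higher at both times, 9 at 12 h only and 0 lower. Fbxo28 had 1114, 91.2 and 77.7 in control MEFs at 0, 6 and 12 h against 1632, 1188 and 1103 in CNOT3-depleted MEFs and was 13.0-fold and 14.2-fold higher at 6 h and 12 h. At shares close to that of all genes, 8 of 36 Rab GTPases (22.2%) were higher at both times and 0 lower, and Rab9, which acts in transport from late endosomes, had 2399, 351 and 167 in control MEFs against 3486, 2859 and 2892 in CNOT3-depleted MEFs, 8.15-fold and 17.3-fold higher at 6 h and 12 h. Of SNARE and syntaxin-binding genes, 8 of 39 (20.5%) were higher at both times while the medians were 0.19, 0.23 and 0.22. Autophagy genes had 9 of 33 (27.3%) higher at both times (medians 0.27, 0.41 and 0.79), and Pik3r4, the regulatory partner of Pik3c3, had 606, 181 and 43.4 in control MEFs against 915, 712 and 671 in CNOT3-depleted MEFs, 3.93-fold and 15.5-fold higher at 6 h and 12 h. Of ubiquitin-conjugating enzymes, 5 of 28 (17.9%) were higher at both times, led by Ube2g1, 5.82-fold and 10.3-fold higher at 6 h and 12 h. Mitochondrial ribosomal proteins had medians of 0.09, 0.44 and 0.87, with 18 of 72 higher at both times and 16 at 12 h only, and Mrps2 had 1565, 233 and 152 in control MEFs against 2198, 1349 and 1143 in CNOT3-depleted MEFs, 5.79-fold and 7.50-fold higher at 6 h and 12 h.

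Genes of cholesterol synthesis had medians of 0.37, 0.87 and 0.84, with 8 of 24 (33.3%, against 18.8% of all genes) higher at both times and 0 lower. Sqle, the squalene epoxidase, had 2702, 256 and 77.3 in control MEFs at 0, 6 and 12 h against 2754, 1644 and 1366 in CNOT3-depleted MEFs and was 6.42-fold and 17.7-fold higher at 6 h and 12 h. Hmgcs1, the synthase that precedes HMG-CoA reductase, had 7861, 1738 and 1215 in control MEFs against 11657, 10995 and 10869 in CNOT3-depleted MEFs, 6.33-fold and 8.95-fold higher at 6 h and 12 h. In both genes the control signal was lower at each later time. Single regulators of fibroblast identity and of signalling were also among the higher genes. The list of collagens and matrix genes, which holds Twist1 and Twist2, had medians of 0.05, -0.47 and -0.65. Those 2 were its only genes of 41 higher at both times, while 2 were lower at both and 7 at 12 h only. Twist1 and Twist2, transcription factors of mesenchymal cells, were 6.19-fold and 14.9-fold higher at 6 h and 12 h and 4.15-fold and 14.6-fold higher at 6 h and 12 h, in that order, Twist1 with 1324, 176 and 76.6 in control MEFs against 1537, 1088 and 1142 in CNOT3-depleted MEFs. Smad1 had 1937, 90.7 and 103 in control MEFs against 2049, 980.1 and 521 in CNOT3-depleted MEFs, 10.8-fold and 5.04-fold higher at 6 h and 12 h, and TGF-beta, BMP and SMAD genes had 8 of 27 (29.6%) higher at both times with medians of 0.13, 0.59 and 0.56. Of Wnt signalling genes, 6 of 24 (25%) were higher at both times and 1 lower, with medians of 0.11, 0.35 and 0.68. Of heat shock and DnaJ genes, 7 of 37 (18.9%) were higher at both times, a share next to that of all genes (18.8%). Among them Dnajb4 was higher by the most, 6.70-fold and 6.62-fold higher at 6 h and 12 h.

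Short-lived immediate-early transcripts split in both directions. Of 39 measured genes 22 were eligible, and 7 (31.8%) were higher at both times, 7 lower at 12 h only and 2 lower at both. Over all genes, these shares were 18.8%, 4.39% and 2.29%, in that order. The medians were -0.36, 0.46 and -0.52, and that at 12 h turned to 0.20 under ribosomal protein scaling. Klf4, a zinc finger transcription factor, had 5083, 495 and 564 in control MEFs at 0, 6 and 12 h against 6865, 3353 and 1962 in CNOT3-depleted MEFs and was 6.78-fold and 3.48-fold higher at 6 h and 12 h. Ccn2, a matrix protein related to Ccn1, had 24446, 7958 and 2594 in control MEFs against 26172, 21255 and 20386 in CNOT3-depleted MEFs, 2.67-fold and 7.86-fold higher at 6 h and 12 h. Egr1 and Jun, transcription factors induced within minutes by serum, were on the other side, Egr1 with 5018, 983 and 1225 in control MEFs against 2786, 601 and 336 in CNOT3-depleted MEFs and Jun with 3528, 706 and 1201 in control MEFs against 2359, 317 and 249.6 in CNOT3-depleted MEFs. Cebpb, a transcription factor of inflammation, had 3487, 77.4 and 157 in control MEFs against 3513, 873 and 516 in CNOT3-depleted MEFs, 11.3-fold and 3.29-fold higher at 6 h and 12 h, from 1.01-fold higher at 0 h. Xbp1, the factor of the unfolded protein response, had 8719, 602 and 677 in control MEFs against 8279, 2648 and 1898 in CNOT3-depleted MEFs, 4.40-fold and 2.80-fold higher at 6 h and 12 h, while that list as a whole had medians of -0.18, -0.43 and -0.66, with 4 of 34 higher at both times and 4 lower, medians that scaling to ribosomal proteins turned to 0.08 at 6 h and 0.07 at 12 h. NF-kB factors, chemokines and cytokines had 3 of 18 higher and 3 lower at both times. The shares higher at both times, 16.7% here and 11.8% in the unfolded protein response list, were below that of all genes.

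The groups below 1 at matched times included lists of abundant mRNAs whose signals went up under Act. D in control MEFs. How far they lay below all genes, and the side of 1 they fell on, depended on how the arrays were scaled. Cytosolic ribosomal proteins had medians of -0.07, -0.53 and -0.68 over 43 eligible genes, with 0 higher at both times and 1 lower. Rplp0, a protein of the ribosomal stalk, had 22727, 35251 and 39816 in control MEFs at 0, 6 and 12 h against 24982, 27618 and 28377 in CNOT3-depleted MEFs. The summed signal of the list was 845155, 1285410 and 1522420 in control MEFs against 820062, 891850 and 943243 in CNOT3-depleted MEFs. On this relative scale the list was thus brighter at each later time in both cultures, and more so in control MEFs. Oxidative phosphorylation subunits had medians of -0.08, -0.49 and -0.58, collagens and matrix genes 0.05, -0.47 and -0.65, and smooth muscle actin and contractile genes 0.11, -0.36 and -0.58. With the arrays scaled to the ribosomal protein genes, the 12 h medians were 0.04 for ribosomal proteins, 0.14 for oxidative phosphorylation, 0.07 for collagens and 0.15 for contractile genes, but that scaling adds 0.72 to every gene at 12 h and left the lists 0.92 to 1.03 below the median of all genes, as before. Quantile normalization gave −0.05, −0.16, −0.29 and 0.03 in the same order. Proteasome subunits had medians of 0.15, 0.03 and 0.23, and that at 6 h turned to −0.04 with median-centred ratios. Translation initiation factors had -0.06, -0.03 and 0.13, and that at 6 h turned to 0.10 under quantile normalization and 0.48 under ribosomal protein scaling. Glycolysis genes had 0.21, 0.15 and -0.04, and that at 12 h turned to 0.26 and 0.68 under the same 2 scalings. At 12 h, quantile normalization put proteasome subunits (0.52), translation initiation factors (0.55) and glycolysis genes (0.26) above the median of all genes (0.10). Single members left these groups, such as Slc2a1, the glucose transporter GLUT1, with 3339.7, 1459 and 420.2 in control MEFs against 3673, 3866 and 3700.5 in CNOT3-depleted MEFs and 2.65-fold and 8.81-fold higher at 6 h and 12 h, and Eif2b4, of the exchange factor eIF2B, 7.18-fold and 6.42-fold higher at 6 h and 12 h.

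**Figure D4:**
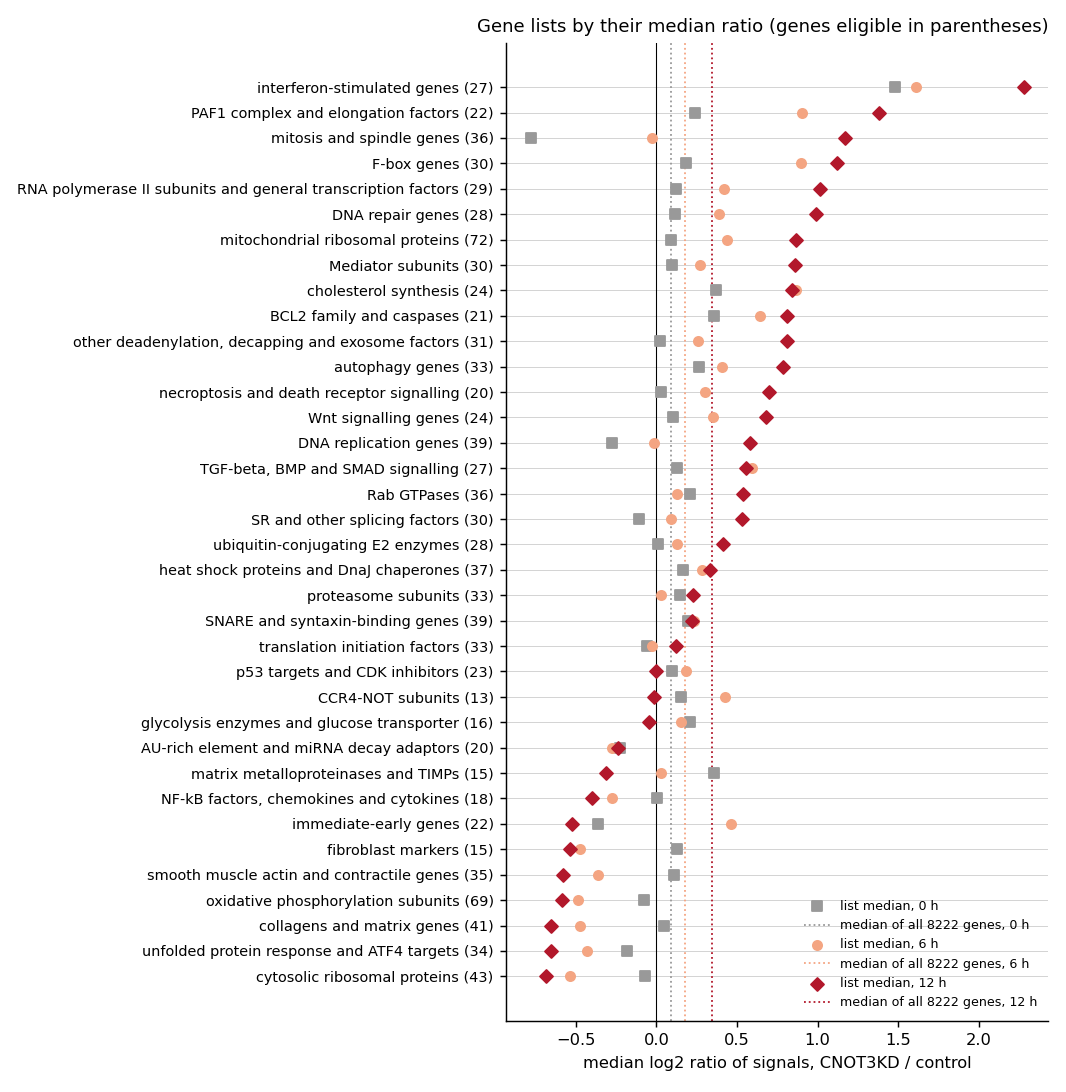
Median log2 ratio of the CNOT3-depleted to the control signal in each gene list at 0 h (squares), 6 h (circles) and 12 h (diamonds), for lists of at least 10 eligible genes, with dotted lines at the medians of all 8222 eligible genes and 1 array a side. Interferon-stimulated genes lie highest at all 3 times and cytosolic ribosomal proteins lowest at 12 h, and a scaling to ribosomal proteins, which adds 0.72 to every gene at 12 h, puts every list drawn below 0 at 12 h above 0 without moving it relative to all genes.

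The split between higher and lower moved with the scaling of the arrays. As deposited, 80.2% of the probe sets past 2-fold were higher at 6 h, 70.2% at 12 h and 80.7% at both times. Quantile normalization moved the median log2 ratio by −0.26 at 6 h and −0.33 at 12 h and gave 57.9%, 52.5% and 57.9%. Scaling to the ribosomal protein genes moved it by 0.51 and 0.72 and gave 98.0%, 96.8% and 98.7%. Centring each ratio on its median moved it by −0.08 and −0.11 and gave 74.9%, 63.0% and 74.3%. Of the 2280 probe sets higher at both times, 2030 were so after median centring, 1497 after quantile normalization and 2280 after ribosomal protein scaling. Of the 547 lower at both times, 547, 513 and 60 were. The full retention of 2280 under ribosomal protein scaling and of 547 under median centring goes with the direction of those uniform shifts and is no check. The part of the differing brightness distributions of the arrays in these counts was not tested.

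**Figure D5:**
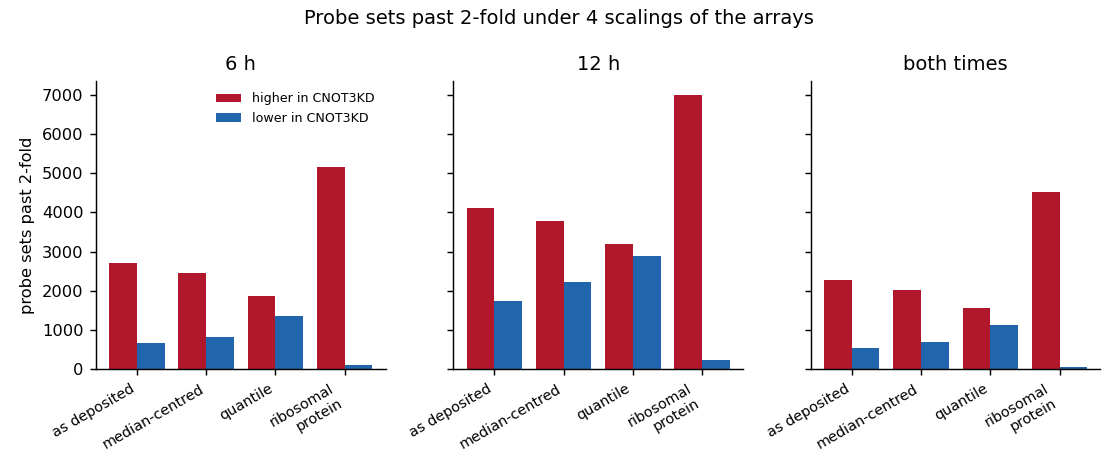
Number of probe sets at least 2-fold higher (red) or lower (blue) in CNOT3-depleted MEFs at 6 h, at 12 h and at both times, with the arrays as deposited and under 3 other scalings. The lower probe sets at both times number 547 as deposited, 702 with median-centred ratios, 1134 with quantile normalization and 60 with ribosomal protein scaling, and the higher ones stay in the majority under all 4.

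The 15 genes with the lowest mean ratio included secreted and membrane proteins and transcripts that host small RNAs. Cxcl12, the chemokine that retains stem cells and leukocytes in tissues, had 9634, 16422 and 23359.9 in control MEFs at 0, 6 and 12 h against 3889.8, 4311 and 4828 in CNOT3-depleted MEFs and was 2.48-fold lower at 0 h and 3.81-fold and 4.84-fold lower at 6 h and 12 h. Its signal thus went up in control MEFs at each time and stayed nearly level in CNOT3-depleted MEFs. Dlk1, an inhibitor of adipocyte differentiation related to Notch ligands, had 1809, 2505 and 3562 in control MEFs against 769, 536 and 666 in CNOT3-depleted MEFs and was 4.68-fold and 5.35-fold lower at 6 h and 12 h. Enpep, the aminopeptidase that cuts angiotensin II, had 493, 963 and 2165 in control MEFs against 203, 283 and 317 in CNOT3-depleted MEFs, 3.40-fold and 6.82-fold lower at 6 h and 12 h. Kcnj11, a subunit of potassium channels, had 1569, 1689.6 and 1342 in control MEFs against 86.6, 203 and 446 in CNOT3-depleted MEFs. The Kcnj11 ratio was furthest from 1 at 0 h, 18.1-fold lower at 0 h, and 8.31-fold and 3.01-fold lower at 6 h and 12 h. Slc1a5, a transporter of glutamine, had 501, 519 and 457 in control MEFs against 77.3, 74.6 and 101 in CNOT3-depleted MEFs and was 6.96-fold and 4.53-fold lower at 6 h and 12 h. Zfp101, a zinc finger protein, had 420.3, 215 and 212 in control MEFs against 193, 23.7 and 56.9 in CNOT3-depleted MEFs, 9.05-fold and 3.72-fold lower at 6 h and 12 h. Limch1, Mbnl3, Mtm1 and Kntc1 were 3.16-fold to 3.67-fold lower at 6 h and 4.26-fold to 5.23-fold lower at 12 h, and their control signals were higher at 12 h than at 0 h in each case. Dynlt1f, a dynein light chain, was 4.56-fold and 4.28-fold lower at 6 h and 12 h, Gas2l3 was 4.07-fold and 4.13-fold lower at 6 h and 12 h and Aldh1a7, an aldehyde dehydrogenase, was 3.52-fold and 4.57-fold lower at 6 h and 12 h.

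Zfas1 and Snhg1 are long noncoding RNAs whose introns give rise to small nucleolar RNAs. Zfas1 had 4018, 3181 and 5319 in control MEFs at 0, 6 and 12 h against 1798, 826 and 1067 in CNOT3-depleted MEFs and was 3.85-fold and 4.99-fold lower at 6 h and 12 h. Snhg1 had 5301, 5151 and 7954 in control MEFs against 2621, 1480.4 and 1604 in CNOT3-depleted MEFs and was 3.48-fold and 4.96-fold lower at 6 h and 12 h, and 2 dimmer Snhg1 probe sets were lower at both times as well. Since both stood among the 15 lowest genes, Gas5, Zfas1 and the genes with Snhg symbols were looked up as snoRNA hosts, a list chosen after these values were seen. Of 16 measured, 11 were eligible, of which 6 were lower at both times, 3 lower at 12 h only and 0 higher, with median log2 ratios of −0.58, −1.11 and −1.39 at 0, 6 and 12 h. Zfas1 and Snhg1, which prompted the list, are counted among the 6 and in the medians. Over all genes, 2.29% were lower at both times and 4.39% lower at 12 h only. Gas5, a host gene known to be degraded by nonsense-mediated decay, had 8451, 13981 and 19426 in control MEFs against 7101, 7841 and 8954 in CNOT3-depleted MEFs and was 2.17-fold lower at 12 h. Snhg12 had 1426, 1767 and 2472 in control MEFs against 953, 578 and 679 in CNOT3-depleted MEFs and Snhg8 had 3834, 5553 and 7727 in control MEFs against 2101, 2369 and 2571 in CNOT3-depleted MEFs. In this group the CNOT3-depleted signal was below the control signal on all 3 pairs of arrays for each of the 11 genes. Zinc finger genes with Zfp symbols, looked up for Zfp101, had 4 of 60 eligible higher and 2 lower at both times. At 12 h only, 5 were higher and 9 lower, and at 6 h only, 4 were higher and 1 lower. Over all genes, 18.8% were higher at both times, 13.6% at 12 h only and 1.68% at 6 h only, and 0.499% were lower at 6 h only. The share higher at both times was thus smaller among Zfp genes. Their medians were -0.16, -0.01 and 0.03 against 0.09, 0.18 and 0.34 for all genes. Zfp101 itself is counted among those lower at both times.

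Genes past 2-fold at 1 time only lay mostly on the same side of 1 at the other time. Of the 1777 probe sets higher at 12 h only, 1732 were above 1 at 6 h, 1027 of them past 1.5-fold, and 244 lay between 0.8 and its reciprocal. Of the 857 lower at 12 h only, 840 were below 1 at 6 h and 658 past 1.5-fold lower. Of the 200 higher at 6 h only, 185 were above 1 at 12 h, 127 past 1.5-fold, and 29 lay between 0.8 and its reciprocal. Of the 81 lower at 6 h only, 79 were below 1 at 12 h and 8 lay between 0.8 and its reciprocal. The genes named next are those with the largest gap between the times among those with the other ratio between 0.8 and its reciprocal.

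Higher at 12 h only were genes lost from control MEFs between 6 h and 12 h. Fut10, a fucosyltransferase, had 292, 270.2 and 37.3 in control MEFs at 0, 6 and 12 h against 304, 259 and 244 in CNOT3-depleted MEFs, 6.53-fold higher at 12 h. Sppl3, an intramembrane protease of the Golgi, had 535, 503 and 85.6 in control MEFs against 746, 464 and 549 in CNOT3-depleted MEFs, 6.41-fold higher at 12 h. Cby1, an antagonist of beta-catenin, had 374, 322 and 76.4 in control MEFs against 331, 310.2 and 477 in CNOT3-depleted MEFs, 6.24-fold higher at 12 h, and Pld1, a phospholipase D, was 6.35-fold higher. Etv5, an ETS transcription factor downstream of FGF signalling, had 1165, 778 and 158 in control MEFs against 761, 899 and 754 in CNOT3-depleted MEFs, 4.78-fold higher at 12 h. In all 5 the ratio at 6 h lay between 0.8 and its reciprocal.

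Higher at 6 h only were genes that were low in control MEFs at 6 h and brighter again at 12 h. Sgk1, a kinase induced by serum and glucocorticoids, had 8228, 779 and 1775 in control MEFs at 0, 6 and 12 h against 10376, 2099 and 1586 in CNOT3-depleted MEFs, 2.69-fold higher at 6 h and 1.12-fold lower at 12 h. Ppan, a protein of ribosome assembly, had 930.5, 82.5 and 233 in control MEFs against 1156, 255 and 246 in CNOT3-depleted MEFs, 3.08-fold higher at 6 h. Id4, an inhibitor of bHLH factors, had 1835, 359 and 566 in control MEFs against 2486, 943 and 561 in CNOT3-depleted MEFs and Flcn, the folliculin of mTOR signalling, 948, 136 and 213 in control MEFs against 1207, 304 and 193 in CNOT3-depleted MEFs. In these 4 genes the control signal was higher at 12 h than at 6 h while the CNOT3-depleted signal was lower, on a scale that is relative to the remaining mRNA. Mettl17 was 2.87-fold higher at 6 h.

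Lower at 12 h only were Btg1, Ankrd49 and Ikzf2, whose signals in both cultures were under Act. D below those at 0 h. Btg1 had 5302, 336 and 523 in control MEFs at 0, 6 and 12 h against 7437, 350.0 and 195 in CNOT3-depleted MEFs, 1.04-fold higher at 6 h and 2.68-fold lower at 12 h. Ankrd49 had 882, 204 and 359 in control MEFs against 805, 249.9 and 105 in CNOT3-depleted MEFs, and Ikzf2, the transcription factor Helios, 839, 218 and 244 in control MEFs against 654, 223 and 89.5 in CNOT3-depleted MEFs. Cfp, the complement factor properdin, had 169, 260.2 and 521 in control MEFs against 271, 236 and 137 in CNOT3-depleted MEFs. Ighm, the immunoglobulin heavy chain, had 243, 192 and 422 in control MEFs against 284, 234 and 159 in CNOT3-depleted MEFs. Lower at 6 h only was a smaller set, in which Nol6, a protein of ribosome assembly, had 70.9, 388 and 315 in control MEFs against 143, 91.3 and 255 in CNOT3-depleted MEFs and was 2.02-fold higher at 0 h. Borcs8, Zfp809, Adamts9 and Inafm1 were 2.01-fold to 2.22-fold lower at 6 h.

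Most markers of other cell types were not eligible at both times, but some were bright. Of 20 leukocyte and macrophage markers, 9 were eligible and 0 were past 2-fold at either time, and Cd14 had 197, 277 and 413 in control MEFs at 0, 6 and 12 h against 297, 326 and 429 in CNOT3-depleted MEFs. Acta1, the actin of skeletal muscle, had 3337, 4111 and 4775 in control MEFs against 6105, 6525 and 6889 in CNOT3-depleted MEFs, Stmn2, a neuronal tubulin-binding protein, 1190.2, 2207 and 2831 in control MEFs against 1815, 2318 and 2428 in CNOT3-depleted MEFs, and Col2a1, a collagen of cartilage, 1523, 1751 and 2111 in control MEFs against 930.0, 1032 and 928 in CNOT3-depleted MEFs. Acta1 and Stmn2 were under 2-fold at both times and Col2a1 was lower at 12 h only. Of 13 endothelial markers 3 were eligible, of 16 skeletal muscle markers 2, of 14 neural and glial markers 4 and of 12 adipocyte and chondrocyte markers 5. Epithelial markers had 4 of 17 eligible, and 3 of these, Krt18, Krt19 and Dsp, were higher at both times and at 0 h. Krt19, a keratin of simple epithelia, had 495, 468 and 487 in control MEFs against 1157, 1232 and 1372 in CNOT3-depleted MEFs, and Dsp, the desmoplakin of desmosomes, 96.2, 213 and 224 in control MEFs against 443, 628 and 534 in CNOT3-depleted MEFs. The summed signal of the 17 epithelial genes was 1997, 1858 and 1815 in control MEFs against 3426, 4036 and 3974 in CNOT3-depleted MEFs. Their part in the other results was not tested. Col10a1, a collagen of hypertrophic cartilage, had 251, 519.8 and 830.3 in control MEFs against 1840.0, 2273 and 3249 in CNOT3-depleted MEFs, and Nes, an intermediate filament of progenitor cells, 798, 774 and 1069 in control MEFs against 431, 344 and 167 in CNOT3-depleted MEFs, while a dimmer Nes probe set was under 2-fold. Fibroblast markers had medians of 0.13, -0.48 and -0.54, with Pdgfrb 2.97-fold higher and Fbln2 2.51-fold lower at 12 h, and the 12 h median turned to 0.07 under quantile normalization and 0.19 under ribosomal protein scaling.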

How the data were processed

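RNA of 6 cultures was hybridised to Affymetrix mouse GeneChips, 1 array per condition. The authors deposited MAS5 signals, a linear intensity per probe set, with a trimmed mean between 494 and 497 on each array, and no further normalization was applied. The sources used here give neither the version nor the target value of MAS5. Since each array was scaled to the same mean, intensities are relative to the mRNA present, and an array whose transcripts are lost gives higher signals for those that remain.

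Of 45037 probe sets, 34945 were annotated to 1 gene, 932 to several and 9160 to none, and 74 without annotation were named by matching values to the study's supplementary tables of genes it chose as stabilized, within a tolerance of 0.001. Names were updated through RefSeq (GRCm38.p6), where 34741 identifiers were found and 0 symbols changed, and 11 older symbols in the gene lists were replaced by current ones. A gene was read at its brightest probe set, ranked by mean log2 signal across the 4 Act. D arrays. Ratios of signals floored at 20 were counted as different at 2-fold, where the larger signal was at least 200. With 1 array per condition no test within a time was possible.

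The genes compared and the lists were chosen with earlier results of these data known. Genes named were the 15 highest and 15 lowest by mean log2 ratio among those past 2-fold at both times, the 5 with the largest gap between times in each class past 2-fold at 1 time only with the other ratio between 0.8 and its reciprocal, the 3 members of each list with the largest mean ratio in either direction, Cnot3, and the genes the study followed by qPCR. Clone-style symbols were left out. B2m, Birc5, Btg2, Ccn2, Ccnb2, Cdk1, Cenpa, Cnot6, Cnot6l, Cnot7, Cnot8, Egr1, Fadd, Gas5, Ifit3, Ifitm2, Ifitm3, Irak1, Irgm1, Jun, Mlkl, Oas1a, Rplp0, Rps9, Snhg8, Snhg12, Tnfrsf1a, Trim25 and Zfp36l2 were named after their values were seen. Alternatives were median-centred ratios, quantile normalization, scaling to cytosolic ribosomal proteins, a floor of 50, a minimum of 400 or none, a 3-fold threshold, leaving out probe sets with the suffixes _a, _s or _x, and a median over the probe sets of a gene. Calculations used Python 3.11.15 with numpy 2.4.6, pandas 2.3.3, scipy 1.17.1 and matplotlib 3.10.9, and were tested on simulated data.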

Additional observations from a re-analysis of the deposited data

Results flagged for a closer look

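In 11 of the named genes the ratio lay past 2-fold at 1 time and on the other side of 1 at the other time. Each time has 1 array a side, and the difference between the times was not tested. Sgk1 had a log2 ratio of 1.43 at 6 h and −0.16 at 12 h, Id4 1.39 and −0.01, and Flcn 1.16 and −0.14. Borcs8 had −1.09 at 6 h and 0.27 at 12 h. Sppl3 had −0.12 at 6 h and 2.68 at 12 h, Fut10 −0.06 and 2.71, and Cby1 −0.05 and 2.64. Ankrd49 had 0.29 at 6 h and −1.77 at 12 h, Ighm 0.29 and −1.41, Ikzf2 0.04 and −1.45, and Btg1 0.06 and −1.42.

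In 3 gene lists of at least 5 eligible genes the median log2 ratio was past 0.5 in size at 1 time and on the other side of 0 at the other time. It was 0.46 at 6 h and −0.52 at 12 h for immediate-early genes, −0.03 and 1.17 for mitosis and spindle genes, and −0.01 and 0.58 for DNA replication genes. Relative to the median of all genes they were 0.28 and −0.87, −0.21 and 0.82, and −0.19 and 0.24, in the same order.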

How the results depend on the processing

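No paired analysis within a time was possible because each condition has 1 array, so no replicates pair the cultures there, and for the same reason no array could be left out. A fit of culture blocked by time over the 6 arrays, which would take the ratio as the same at each time, was not run. A floor of 50 could change no count at 6 h or 12 h, since a larger signal of at least 200 stays past 2-fold above it. At 0 h, where no minimum was set, it gave 217 lower probe sets in place of 221. Quantile normalization gave 1359 lower probe sets at 6 h, 2895 at 12 h, 1134 at both times and 155 at 6 h only. Ribosomal protein scaling gave 5168 higher and 108 lower at 6 h, 7006 and 228 at 12 h, 4516 and 60 at both times, and 37 lower at 6 h only and 130 at 12 h only. A minimum of 400 gave 422 lower at 6 h, 1154 at 12 h, 74 higher at 6 h only and 41 lower at 6 h only. No minimum gave 5158 higher and 3149 lower at 6 h, 6361 and 6330 at 12 h, 1550 lower at both times, 1646 higher and 1502 lower at 6 h only, and 3008 higher and 4524 lower at 12 h only. A 3-fold threshold gave 1322 higher and 103 lower at 6 h, 2451 and 477 at 12 h, 1039 and 67 at both times, and 27 lower at 6 h only and 263 at 12 h only. Without probe sets of shared suffix, 131 were higher and 53 lower at 6 h only. The cause of these shifts was not tested, except that a stricter minimum or threshold leaves fewer probe sets by construction. Of 334 ratios of named genes at 6 h or 12 h, 1 turned, that of Csnk1a1 at 6 h, from 1.19 to −0.036 on the log2 scale with a median over its probe sets. With 1 array per condition, signals near background limit the low side of a ratio.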
